A study of Mus musculus with 4 samples.

Results

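Within ligated mouse carotid arteries, a group of vascular smooth muscle cells (VSMCs) chosen for *Igfbp2*, *Postn* and 5 further genes also carried high levels of elastin and other matrix genes beside contractile genes. In control and *Trf2T188A* mice these cells had 8.34 and 9.83 times as much *Eln* and 1.20 and 1.10 times as much *Myh11* as the comparison cells with high *Sparcl1* and *Rbp4*. The group, called Igfbp2 Postn cells here, held 2631 of the 10359 cells of the ligation experiment, and the whole series held 12790 cells. Its members were chosen with 3 scores, each the mean of log2(value + 1) over a few genes, standardised over all ligation cells as a z-score. Score A used *Sparcl1*, *Tcap*, *Sphkap*, *Rbp4*, *Ccdc3* and *Nudt4*, score B used *Igfbp2*, *Filip1l*, *Col14a1*, *Actg2*, *Ankrd1*, *Postn* and *Ccn5*, and score C used *Gdf10*, *Ecrg4*, *Cst3*, *Crispld1*, *Comp*, *Cp*, *Sfrp2* and *Abi3bp*. A cell was a member where B was the highest of the 3 scores and its B z-score was at least 0.5. Cells with A or C highest and at least 0.5, 2980 A-highest and 2082 C-highest cells, served for comparison. Since the cells were chosen on measured expression, every difference between these classes is a description and was not tested.

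The cells came from the left common carotid arteries of male C57Bl6/J mice aged 4 to 5 months, collected 28 days after the vessel had been ligated below its bifurcation, with the adventitia and the sections that had not remodelled removed. Control mice were wild-type littermates, and *Trf2T188A* mice carried the Sm22a-TRF2T188A transgene, a point mutant of the telomere protein TRF2 under the minimal *Sm22a* promoter. This promoter is active in arterial VSMCs and, as the study's authors state, possibly in cells of another origin that become like smooth muscle. Each genotype had 1 single-cell RNA-seq library, and the number of mice behind it is not given in the sources used here, so differences between genotypes have no replicate check. Values are unique molecular identifiers (UMIs, each 1 counted RNA molecule) per 10000 UMIs of a cell, given as means over cells.

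After ligation, VSMCs leave the contractile state, divide and lay down matrix in a neointima, and many regain contractile proteins as the vessel settles. Periostin (*Postn*) and WISP2 (*Ccn5*) are secreted matricellular proteins, type XIV collagen (*Col14a1*) sits on the surface of collagen fibrils, and IGFBP2 binds insulin-like growth factors. *Actg2* encodes the actin of visceral smooth muscle, *Ankrd1* is a stretch-responsive nuclear cofactor induced by YAP and TEAD, and *Filip1l* encodes a regulator of the actin cytoskeleton.

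In the GRCm38 mouse genome these genes lie on 7 chromosomes. *Igfbp2* is at chr1:72824503-72852474 on the plus strand, *Postn* at chr3:54361109-54391037 on the plus strand, *Ccn5* at chr2:163820861-163833146 on the plus strand and *Col14a1* at chr15:55307750-55520803 on the plus strand. *Actg2* is at chr6:83512905-83536265 on the minus strand and *Ankrd1* at chr19:36111961-36120099 on the minus strand. *Filip1l* is at chr16:57353093-57573126 on the plus strand, where it overlaps *Cmss1* on the other strand, and whether strand was used in counting is not given in the sources used here.

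Promoter sequences of RefSeq (GRCm38.p6) matched 4 of the 7 genes at 7 transcription starts. The 250 bases before each start were searched on both strands for the M-CAT core GGAATG bound by TEAD factors, for the CArG box bound by serum response factor, and on the gene's strand for TATAAA. A match was found before 3 of the 7 starts. *Ankrd1* held the M-CAT core at positions -210 and -123 from its start, and the core was present in 12.6% of all 32851 promoters. One CArG box lay at position -62 of the downstream *Filip1l* start, and 1.47% of all promoters held such a box. TATAAA was found at position -26 of 1 *Postn* start and in 7.59% of all promoters. The stretches below show these letters with the match in capitals, since *Ankrd1* and *Filip1l* are the cofactor and the cytoskeletal gene of the score. A match describes the sequence and does not show that a factor binds there. An isoform of *Ankrd1* in the GENCODE annotation starts further upstream, so its sites are given as 30 bases each.
Ankrd1, chr19:36120037-36120066, minus strand: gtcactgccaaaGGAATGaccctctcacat
Ankrd1, chr19:36119950-36119979, minus strand: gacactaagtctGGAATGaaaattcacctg
Filip1l, chr16:57548992-57549241, plus strand: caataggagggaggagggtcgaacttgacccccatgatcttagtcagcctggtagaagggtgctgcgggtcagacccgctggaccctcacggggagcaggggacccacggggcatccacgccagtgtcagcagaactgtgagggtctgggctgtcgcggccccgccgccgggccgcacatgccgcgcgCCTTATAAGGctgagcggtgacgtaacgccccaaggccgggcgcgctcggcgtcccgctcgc

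The libraries held 4967 control and 5392 *Trf2T188A* cells with medians of 8631 and 11153 UMIs, and members had medians of 9217 and 11356. Mitochondrial genes took a median of 2.27% and 2.36% of the UMIs of members, against 1.40% and 1.61% in C-highest cells and 1.93% and 2.07% in A-highest cells. The 2 libraries shared 10 cell barcodes, 1 of which was a member in both.

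The label was first checked against markers of smooth muscle. The summed level of 9 smooth muscle markers was 522 and 546 UMIs per 10000 in control and *Trf2T188A* members, above the 429 and 447 of A-highest cells and the 217 and 223 of C-highest cells, and none of the 9 was at 0. Endothelial markers summed to 0.170 and 0.207 in members, near or below the 0.308 to 0.355 of the other classes, where cells with at least 3 of the 9 endothelial markers reached 61.8 and 52.3. The 11 immune markers summed to 0.0875 and 0.145 with *Cd3e* at 0, against 140 and 202 in cells with at least 3 of them. Among the members, 6 cells had at least 3 endothelial and 12 at least 3 immune markers. The 10 adventitial fibroblast markers summed to 6.55 and 5.69 in members, below both other classes, with *Dpp4* at 0 in both libraries and *Pi16* at 0 in controls. The 7 pericyte markers in the files summed to 8.39 and 8.28, above the 6.42 and 6.22 of A-highest cells and beside 7.61 and 10.7 in C-highest cells, with *Higd1b* at 0 in control members, and the 6 Schwann and neural markers to 5.31 and 4.83, nearly all from *Ncam1* at 5.28 and 4.80. No list was fixed for "remodelling" as such, so the cells are described by their rule and by their genes.

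Members made up 1315 of 4967 control cells (26.5%, 95% Clopper-Pearson interval 25.3 to 27.7%) and 1316 of 5392 *Trf2T188A* cells (24.4%, 23.3 to 25.6%). These intervals cover counting error only. The difference depended on the height of the floor. With a B z-score of at least 0 the shares were 34.9% (33.6 to 36.2%) and 29.9% (28.7 to 31.2%). With at least 1 they were 15.6% (14.6 to 16.7%) and 16.5% (15.5 to 17.5%), in the other order but with overlapping intervals. A further 585 control and 439 *Trf2T188A* cells had B highest but under the floor, and 68 and 115 cells reached the floor while another score was higher. The 100 members just above the floor, with z-scores from 0.50 to 0.55, had 0.939 UMIs per 10000 of *Igfbp2* and 45.5 of *Eln*. The 100 cells just below it, with z-scores from 0.44 to 0.50, had 1.36 of *Igfbp2* and 41.0 of *Eln*.

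The 7 genes of score B were carried unequally by the members. A median of 5 of the 7 genes was detected per control member and 6 per *Trf2T188A* member, and all 7 were detected in 19.4% and 30.2% of them. These counts were taken at the full depth of each cell, with medians of 9217 and 11356 UMIs per member. The part of depth in their difference was not tested. *Postn* had means of 14.3 and 16.5 UMIs per 10000 in control and *Trf2T188A* members, 6.50 and 7.33 in A-highest cells and 2.38 and 2.95 in C-highest cells. It was spread widely over the members: the 10% of cells with the highest values held 22.0% and 21.8% of its summed level. *Filip1l* was similar, at 20.3 and 22.1 in members against 8.73 and 7.74 in A-highest and 2.78 and 3.75 in C-highest cells, with 23.1% and 23.4% of its level in the top 10% of members.

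*Igfbp2* was far more concentrated. Its mean was 6.26 in control and 13.9 in *Trf2T188A* members, against 0.388 and 0.436 in A-highest cells and 1.25 and 1.15 in C-highest cells. The medians over members were only 1.23 and 1.91 and the highest single cells reached 166 and 416, so that the top 10% of members held 58.4% and 66.4% of its level. With every cell thinned to 5000 UMIs, *Igfbp2* was detected in 633 of 1266 control members (50.0%) and 705 of 1288 *Trf2T188A* members (54.7%). In A-highest cells the thinned shares were 8.18% and 10.6%, and in C-highest cells 17.3% and 14.5%. As a background, 0 of 59 control endothelial-marked cells had an *Igfbp2* UMI, which allows a share of cells with a UMI of up to 5.08%, while 5.88% of 68 such *Trf2T188A* cells did. Among immune-marked cells 5 of 21 control cells (23.8%, 95% interval 8.22 to 47.2%) and 4 of 48 *Trf2T188A* cells (8.33%, 2.32 to 20.0%) had one. These cells are not a clean background, since *Myh11* had a UMI in 47.6% and 33.3% of them. Before thinning, 9 of 31 control and 3 of 64 *Trf2T188A* immune-marked cells were themselves members. Whether the shares of A-highest and C-highest cells are expression therefore cannot be decided from this background. Thinning left out 49 control and 28 *Trf2T188A* members that had fewer UMIs. Without thinning, 57.2% and 63.3% of the members had an *Igfbp2* UMI.

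The remaining genes of the score lay between these extremes. *Actg2* was at 7.75 and 6.28 in members, 2.28 and 2.26 in A-highest and 0.420 and 0.387 in C-highest cells. *Col14a1* was at 4.54 and 4.36 in members and below 1 in A-highest and C-highest cells of both libraries. *Ankrd1* was at 3.13 and 3.51 against 0.312 and 0.293 in A-highest cells, and the top 10% of members held 47.1% and 49.9% of it. *Ccn5* was at 1.49 and 3.11 against 0.0991 and 0.200 in A-highest cells. These levels follow from the rule and are given only to show what kind of cell it picked.

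**Figure D1:**
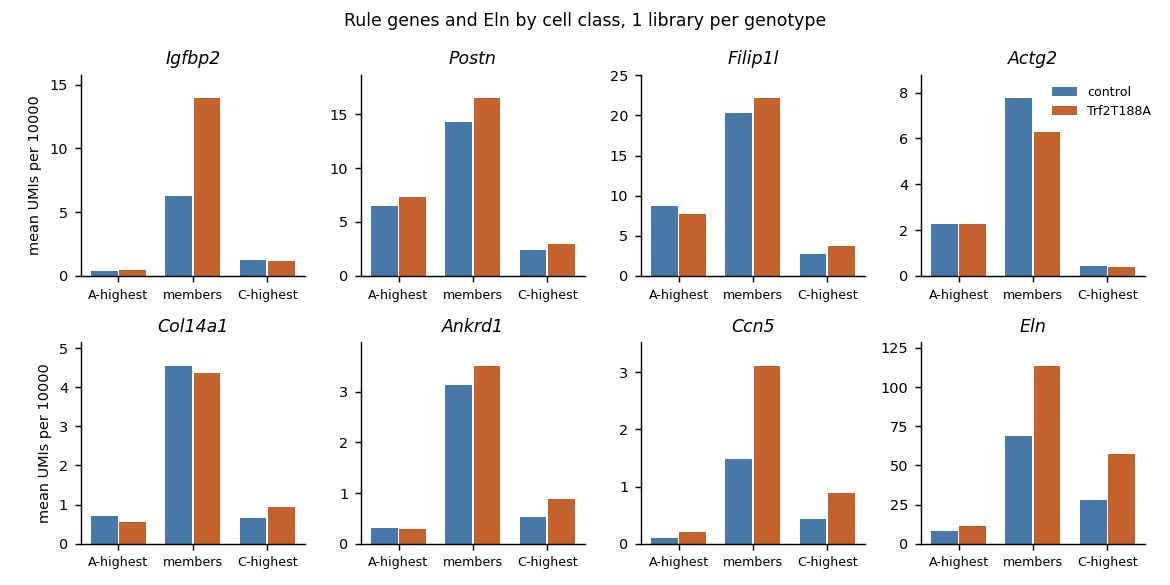
Bars give the mean UMIs per 10000 of the 7 genes of score B and of *Eln* in A-highest cells, members and C-highest cells of the control (blue) and *Trf2T188A* (orange) libraries, 1 library each and without error bars. *Igfbp2* is 6.26 and 13.9 in members and at most 1.25 elsewhere, while *Postn* and *Filip1l* are also present in A-highest cells.

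Against A-highest cells, members had higher levels of many matrix genes. Expression ratios are on the log2 scale, from means to which 1 UMI per 10000 was added, and were taken within each library. A gene was counted as past the fold where this ratio was at least 0.5 in size in the same direction in both libraries, among genes detected in at least 10% of members or of the other class in both. Of 7902 genes tested, 61 were higher in members (0.772%) and 54 lower (0.683%), 1.46% in all, and the median ratio over the 7902 genes was -0.02. With a pseudocount of 0.1 the share of higher genes among those past the fold went from 53.0% of 115 to 40.9% of 460. For the named genes tested, the 95% interval of a ratio, which covers counting error only, was at most 0.06 to either side.

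The largest difference outside the scores was in *Eln* (chr5:134702593-134747323, minus strand), which encodes the tropoelastin monomer of elastic fibres. *Eln* had means of 68.6 and 113 UMIs per 10000 in control and *Trf2T188A* members against 8.22 and 11.5 in A-highest cells, log2 ratios of 2.92 and 3.19. In members it was also unevenly held, with medians of 27.9 and 65.4 per cell, quartiles of 9.47 and 71.9 in controls, and quartiles of 34.4 and 144 in *Trf2T188A* cells. Elastin is cross-linked on a scaffold of microfibrils, and 7 of the 16 tested elastic fibre genes were past the fold upwards and none downwards, with a median ratio of 0.55. Besides *Eln* these were *Mfap5*, the microfibril glycoprotein MAGP2 (1.27 and 1.55), the elastin-binding fibulin *Fbln5* (1.04 and 1.44), the cross-linking enzymes *Lox* (0.93 and 1.49) and *Loxl1* (0.54 and 0.73), *Fbn1* (0.56 and 0.82) and *Ltbp2* (0.53 and 0.82). *Ltbp1*, which binds latent TGF-beta, had ratios of -0.37 and -0.42 and was not past the fold.

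**Figure D2:**
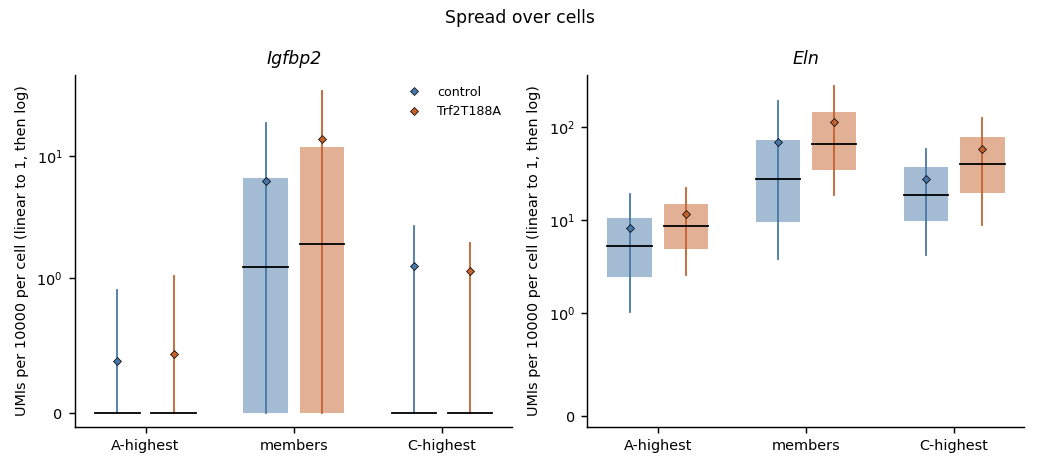
For *Igfbp2* and *Eln*, boxes span the quartiles over cells, vertical lines the 10th to 90th percentiles, black lines mark medians and diamonds means, in UMIs per 10000 on an axis that is linear up to 1 and logarithmic above, with control in blue and *Trf2T188A* in orange. The *Igfbp2* medians of members are 1.23 and 1.91 with means of 6.26 and 13.9, and the *Eln* medians of members are 27.9 and 65.4.

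Fibrillar collagens and their processing followed the same direction, with 8 of 20 tested genes higher, none lower and a median of 0.53. *Col1a1* was at 11.7 and 16.4 in members against 4.17 and 4.75, and *Col3a1* at 20.9 and 32.7 against 8.78 and 8.61. *Sparc*, a collagen-binding matricellular protein, was at 80.9 and 95.3 against 22.6 and 21.0. *Col1a2*, *Col5a2*, *Col6a1*, *Col6a3* and the collagen chaperone *Serpinh1* were past the fold as well, with ratios from 0.50 to 1.27. Basement membrane genes were higher in 5 of 14 cases and lower in none, led by *Col4a2* (1.09 and 1.19) and *Col4a1* (0.87 and 0.97), the chains of the network-forming type IV collagen. Fibronectin (*Fn1*) was at 26.4 and 27.6 against 9.12 and 9.87. The other matricellular genes were divided: *Fstl1* and *Thbs1* were higher with *Fn1*, and *Smoc1*, *Spp1* and *Prelp* were lower, 3 of 19 each way, with a median of 0.07.

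Few contractile genes separated members from A-highest cells. Of 24 tested genes, *Cnn1* (17.2 and 18.4 against 10.8 and 9.97) and *Tpm1* (42.1 and 39.2 against 27.7 and 25.2) were past the fold upwards, and *Pln*, the phospholamban that restrains the sarcoplasmic calcium pump, was past it downwards (0.221 and 0.195 against 1.41 and 1.07). The median of the list was 0.12. *Myh11*, the smooth muscle myosin heavy chain, was at 43.3 and 37.2 in members and 36.0 and 33.8 in A-highest cells, *Acta2* at 219 and 246 against 169 and 179, and *Tagln* at 135 and 140 against 123 and 136, none of them past the fold.

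Several genes set members below A-highest cells. *Mgp*, the matrix protein that inhibits calcification, was at 164 and 169 against 350.1 and 333. *Fth1*, the ferritin heavy chain, was at 55.5 and 49.9 against 117 and 120. *Rspo3*, a secreted enhancer of Wnt signalling, was at 0.330 and 0.414 against 1.95 and 1.61, and *Igfbp5* at 0.0115 and 0.0242 against 0.687 in both libraries. *Apoe*, which carries lipids, and *Rgs5*, a regulator of G-protein signalling also found in pericytes, went the other way: *Apoe* was at 8.25 and 4.77 against 1.40 and 1.43, and *Rgs5* at 2.75 and 3.41 against 0.530 and 0.426.

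Between members and C-highest cells, more genes were past the fold. Of 7843 genes tested, 117 were higher in members (1.49%) and 128 lower (1.63%), 3.12% in all, with a median ratio of -0.00 over the genes tested. Here the contractile genes stood out: 16 of 23 were past the fold upwards, none downwards, and the median was 0.74. *Cnn1* was at 17.2 and 18.4 against 3.78 and 4.23, *Myh11* at 43.3 and 37.2 against 14.9 and 12.8, and *Acta2* at 219 and 246 against 86.9 and 91.4. *Tpm2*, *Csrp2*, *Crip1* and *Sh3bgr* were among the 10 highest, with ratios from 1.31 to 1.77. *Ppp1r14a*, the inhibitor of myosin phosphatase, was at 7.16 and 8.40 in members, with ratios of 1.62 and 1.65.

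Of 20 tested matricellular proteins and proteoglycans 3 were higher and 6 lower in members than in C-highest cells, with a median of -0.20. Among the lower ones, lumican (*Lum*) was at 0.929 and 2.16 in members against 18.2 and 24.5 in C-highest cells, and decorin (*Dcn*) at 0.135 and 0.552 against 6.92 and 9.28. *Mgp* was at 164 and 169 against 763 and 737, *Spp1* (osteopontin) at 0.0469 and 0.0699 against 4.60 and 2.88, and *Tnfrsf11b* (osteoprotegerin) at 0.647 and 0.643 against 3.56 and 3.76. Members shared part of their matrix with C-highest cells: *Lox*, *Fbln5*, *Fbn1*, *Sparc* and *Col3a1* had ratios between -0.02 and 0.26 and none was past the fold. *Eln* was past it upwards, at 68.6 and 113 against 27.9 and 57.5, as were *Mfap5* (1.37 and 1.41), *Fn1* (1.07 and 0.97) and the type IV collagens, while *Col1a1* was lower (-0.74 and -0.67). Of the 10 tested genes that the study used for fibromyocytes and de-differentiation, markers that it also applied to these samples, 2 were higher and 5 lower in members.

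**Figure D3:**
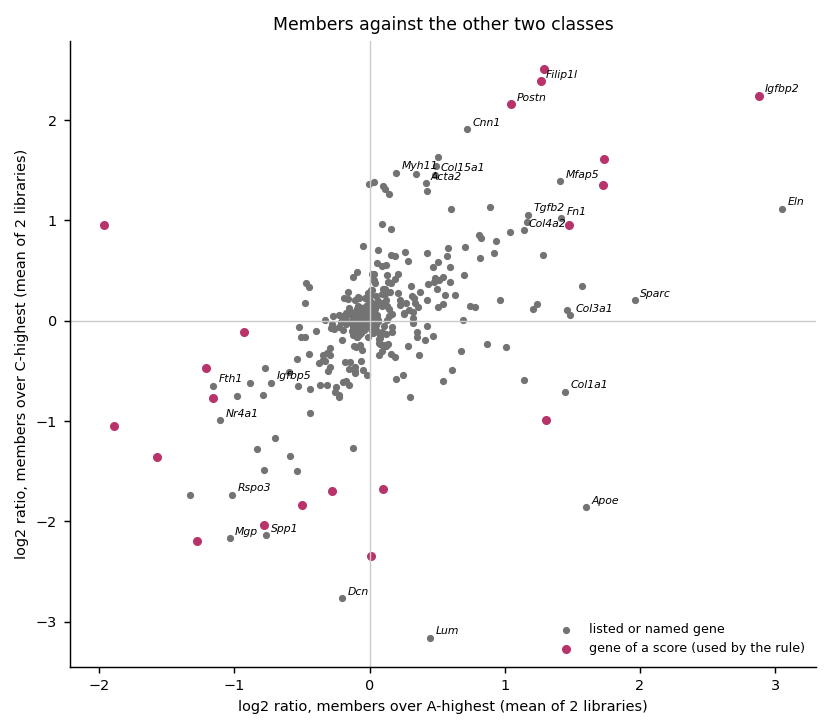
Each point is a listed or named gene tested in both comparisons, with the log2 ratio of members over A-highest cells on the horizontal and over C-highest cells on the vertical axis, each the mean of both libraries, and genes of the scores in magenta. *Eln*, *Mfap5*, *Fn1* and *Tgfb2* lie to the upper right, contractile genes such as *Cnn1* and *Myh11* rise along the vertical axis, and *Lum*, *Dcn*, *Mgp* and *Apoe* lie far below 0 on it.

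Few signalling genes were past the fold. Of 21 tested TGF-beta genes, only the ligand *Tgfb2* (chr1:186622792-186705989, minus strand) was past the fold upwards against A-highest cells, at 3.22 and 3.65 against 0.927 and 1.01, and it was also higher than in C-highest cells (1.10 and 1.16). After thinning, *Tgfb2* was detected in 69.8% and 72.7% of members, against 32.2% and 35.5% of A-highest and 35.4% and 38.3% of C-highest cells. *Id1* and *Id3*, targets of BMP signalling, were lower in members than in either class, *Id1* at 5.56 and 3.92 against 9.39 and 11.0 in A-highest cells. Among 17 tested genes of YAP, TEAD and their targets, *Fstl1* and *Tgfb2* were higher than in A-highest cells and none was lower, with a median of -0.06. *Ankrd1*, itself such a target, is in the score and so not in this list. Of 15 SRF and MRTF genes *Tpm1* alone was past the fold, and of 8 Notch genes none was, *Notch3* having ratios of 0.33 in both libraries. In the insulin-like growth factor system *Igfbp7* was higher (121 and 142 against 67.4 and 81.8), *Igfbp5* lower and the other 6 tested genes were not past the fold. Of the matrix proteases, *Mmp2* (1.24 and 1.72 against 0.210 and 0.246) and *Prss23* (7.66 and 5.29 against 2.43 and 2.75) were higher in members than in A-highest cells. In C-highest cells *Mmp2* was at 1.66 and 2.27, above members, and *Prss23* at 3.18 and 2.83, below them. The remaining lists gave little: 0 of 6 interferon-stimulated genes, 0 of 3 cell cycle genes, 0 of 3 cartilage and bone genes, 0 of 2 STING pathway genes and 0 of 14 nuclear respiratory chain genes were past the fold against A-highest cells. Against C-highest cells, the cyclins *Ccnd1* and *Ccnd2* and the cartilage and bone gene *Bmp2* were lower in members, with ratios from -0.57 to -0.77.

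Genes that tissue digestion is known to induce also differed between the classes. *Hspa1a*, *Hspa1b* and *Hspb1* of 9 heat-shock genes were higher in members than in A-highest cells, with a median of 0.42 for the list, and *Nr4a1* and *Ier2* of 12 immediate early genes were lower, with a median of -0.32. *Hspa1a* and *Hspa1b* are near-identical copies whose reads counting may split, so their separate values are uncertain. The part of digestion in any other difference was not tested.

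*Cdkn2a* (chr4:89274471-89294653, minus strand), whose locus encodes the senescence inhibitor p16 and the p53 regulator ARF, was rare but not evenly placed. Members held 278 control and 458 *Trf2T188A* UMIs of it, or 20.8 (exact Poisson 95% interval 18.5 to 23.4) and 27.1 (24.7 to 29.7) per 1000000 UMIs. A-highest cells held 9 and 14 UMIs, 0.753 (0.344 to 1.43) and 0.616 (0.337 to 1.03) on this scale, and C-highest cells 12.8 (10.6 to 15.2) and 18.2 (15.9 to 20.6). After thinning, 97 of 1266 control members (7.66%) and 114 of 1288 *Trf2T188A* members (8.85%) had a UMI, against 0.348% and 0.230% of A-highest cells and 4.55% and 6.23% of C-highest cells. None of 59 control and 68 *Trf2T188A* endothelial-marked cells had one, which allows shares of cells with a UMI of up to 5.08% and 4.41%, and 0 of 21 and 1 of 48 immune-marked cells did. With 1 added to each mean, the log2 ratios of *Cdkn2a* against A-highest cells were 0.23 and 0.29 and not past the fold, since such ratios understate differences at low levels. *Cdkn1a* (p21) was at 2.11 and 2.03 in members, 2.68 and 2.51 in A-highest and 4.48 and 3.79 in C-highest cells, lower than in C-highest cells past the fold. *Cdkn1c* was lower than in A-highest cells. *Terf2*, the gene of TRF2, was at 14.5 (12.6 to 16.7) and 15.6 (13.8 to 17.6) per 1000000 UMIs in control and *Trf2T188A* members, and these intervals overlapped. Whether these counts include transcripts of the transgene is not given in the sources used here.

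The members were not uniform, and their levels of *Cdkn2a* and of several matrix genes, but not all, rose with the B score that chose them. In controls, *Igfbp2* went from 1.45 in members with B z-scores of 0.5 to 1 to 4.08, 9.79 and 22.8 in the ranges from 1 to 1.5, 1.5 to 2 and 2 upwards, and in *Trf2T188A* members from 1.57 to 5.07, 11.8 and 44.9. *Eln*, which is not in the score, went from 33.6 to 68.6, 96.0 and 147 in controls and from 60.3 to 80.0, 144 and 211 in *Trf2T188A* members. Between the lowest and the highest range, *Cdkn2a* went from 0.0827 to 0.399 and from 0.113 to 0.477. *Fn1* went from 20.5 to 39.8 and from 21.8 to 35.9. In contrast *Filip1l*, one of the genes of the score, stayed between 19.7 and 21.0 in controls, and *Myh11* between 42.8 and 43.8 in controls and between 34.3 and 39.4 in *Trf2T188A* members. *Sfrp2*, a gene of score C that antagonises Wnt signalling, went from 3.15 to 10.1 and from 4.21 to 13.6. *Itih4* ran the other way in both libraries, from 1.60 to 0.717 and from 4.30 to 1.48. Of the matrix genes, *Mgp* went from 164 to 141 and from 179 to 134. *Dcn* went from 0.0998 to 0.0929 and from 0.590 to 0.379.

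**Figure D4:**
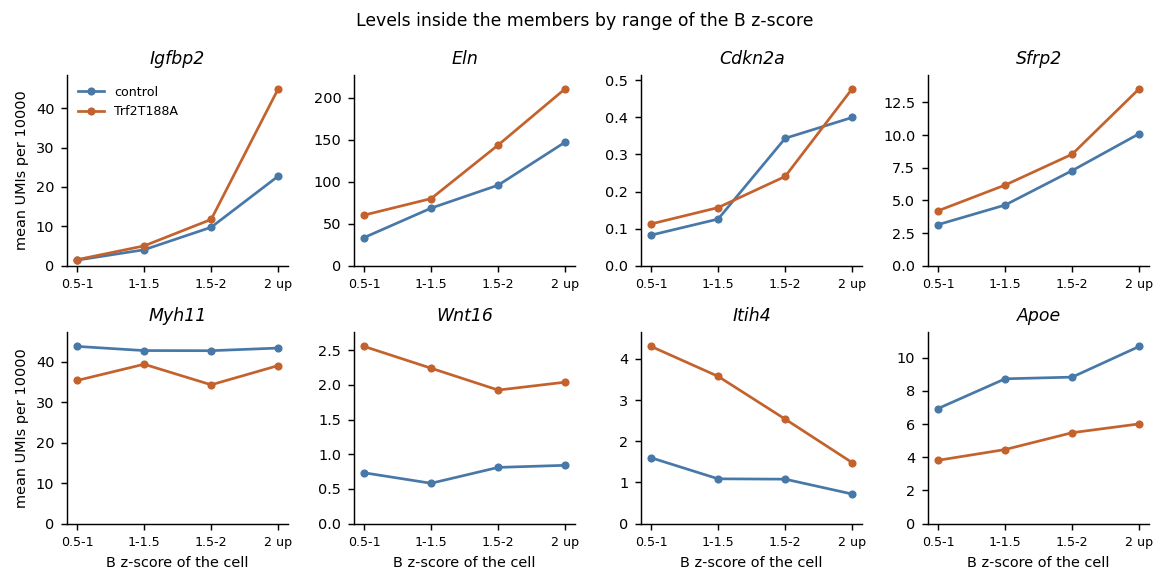
Points give the mean UMIs per 10000 of 8 genes in members of 4 ranges of the B z-score, with control in blue and *Trf2T188A* in orange, from 539, 391, 224 and 161 control and 429, 374, 220 and 293 *Trf2T188A* cells, without error bars. *Igfbp2*, *Eln*, *Cdkn2a* and *Sfrp2* are highest in the upper range, *Myh11* is nearly level, and *Wnt16* and *Itih4* are higher in *Trf2T188A* members in every range.

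The score that came second in a member sorted the group further. In 565 control members (43.0%) and 408 *Trf2T188A* members (31.0%) the A score was second, and in 750 (57.0%) and 908 (69.0%) the C score was. Members with C second had *Eln* at 102 and 142 against 24.0 and 49.5 where A was second, *Igfbp2* at 9.20 and 18.4 against 2.35 and 4.01, and *Cdkn2a* at 0.259 and 0.298 against 0.0723 and 0.0712. *Myh11* was lower in them, at 37.3 and 33.8 against 51.2 and 44.6, and *Mgp* higher, at 191 and 188 against 127 and 125. *Postn* hardly differed, at 13.8 and 16.1 against 14.8 and 17.2. Members nearer to the C score thus had more *Eln*, *Igfbp2* and *Cdkn2a* and less *Myh11* than members nearer to the A score.

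Members were also split by whether they yielded a UMI of *Igfbp2*, a gene of the rule, or of *Cdkn2a*. In cells thinned to 5000 UMIs, members with an *Igfbp2* UMI had *Eln* at 97.1 in controls and 156 in *Trf2T188A* mice, against 39.1 and 58.8 without one. *Cdkn2a* was at 0.291 and 0.326 against 0.0853 and 0.106, and *Ptprz1*, a receptor phosphatase, at 1.52 and 2.65 against 0.455 and 0.854. *Rgs5* went the other way, at 1.96 and 2.17 with and 3.62 and 5.27 without *Igfbp2*. Members with a *Cdkn2a* UMI, 97 and 114 cells, had *Igfbp2* at 17.9 and 42.8 against 5.27 and 11.3 in the others, *Fn1* at 38.7 and 40.1 against 25.0 and 26.0, and *Myh11* at 35.6 and 27.3 against 44.0 and 38.4. Splits of this kind depend on which cells happened to yield a UMI and were not tested.

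The genotypes were then compared within the members. A gene was counted as past the fold where the log2 ratio of *Trf2T188A* over control was at least 0.25 in size and the gene was detected in at least 10% of the members of either library. Of 8100 genes tested, 115 were higher (1.42%) and 69 lower (0.852%) in *Trf2T188A* members, 2.27% in all, and the median over the genes tested was -0.01. A pseudocount of 0.1 took the share of higher genes from 62.5% of 184 to 40.4% of 1096. In A-highest cells 0.795% of 8428 genes were higher and 0.202% lower, 0.997% in all, and in C-highest cells 1.09% of 8252 were higher and 0.497% lower, 1.59% in all. Genotype, library and animal cannot be told apart in any of these values. The control library was also shallower. With cells thinned to 5000 UMIs, 187 genes were past the fold, 110 of them higher, among 5531 genes tested in place of 8100.

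*Igfbp2*, *Ccn5* and *Actg2* are genes of score B, which chose the members, so their ratios within members are partly set by the rule and are given as a description. The largest ratio belonged to *Igfbp2*, at 1.04 (95% interval 1.01 to 1.07, counting error only), with 0.05 in A-highest and -0.06 in C-highest cells. In the 4 ranges of the B z-score, which are themselves cut partly on *Igfbp2*, the ratios were 0.07, 0.26, 0.24 and 0.95. The upper range held 12.2% (10.5 to 14.1%) of control and 22.3% (20.0 to 24.6%) of *Trf2T188A* members. Weighting both libraries to the same makeup of these ranges, added after the data had been seen, gave a ratio of 0.62, and the difference of mean log2 values gave 0.45. *Ccn5* was the other gene of the score past the fold upwards, with 0.72 in members, 0.13 in A-highest and 0.39 in C-highest cells. Without the added 1, *Ccn5* in *Trf2T188A* was 2.09, 2.02 and 2.02 times its control level in members, A-highest and C-highest cells. Its difference was thus not particular to members. *Actg2* was past the fold downwards, with -0.27 in members. It was not past it with cells thinned to 5000 UMIs (-0.24), with z-scores within each library (-0.23) or with B z-scores of at least 1 (-0.12). Its ratio was -0.75 in the lowest range of the B z-score and -0.07 in the highest.

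Matrix genes again were prominent. *Eln* was at 68.6 in control and 113 in *Trf2T188A* members, a ratio of 0.72 (0.71 to 0.73), and it was higher in *Trf2T188A* cells of the other classes too, with 0.44 in A-highest and 1.02 in C-highest cells. Within the 4 ranges of the B z-score its ratios were 0.83, 0.22, 0.58 and 0.51. Of 16 tested elastic fibre genes 6 were higher and none lower, among them *Mfap5* (0.54), *Mfap4* (0.47), *Lox* (0.45) and *Fbln5* (0.35), and of 20 collagen genes 5 were higher and none lower, led by *Col3a1* (20.9 and 32.7, ratio 0.62) and *Col1a1* (11.7 and 16.4, ratio 0.46). The medians of these lists were 0.20 and 0.12. In C-highest cells 6 of 17 elastic fibre and 5 of 20 collagen genes were higher, and in A-highest cells 2 of 16 and 0 of 20, with none lower. Basement membrane genes were past the fold in 0 of 15 cases, and *Fn1*, high in members of both libraries, had a ratio of 0.06.

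Tenascin C (*Tnc*, chr4:63959785-64047015, minus strand), a matricellular protein of injured vessels, was at 0.309 in control and 1.13 in *Trf2T188A* members, a ratio of 0.70 against 0.06 in A-highest and 0.35 in C-highest cells. After thinning it was detected in 11.4% (9.68 to 13.3%) of control and 36.7% (34.1 to 39.4%) of *Trf2T188A* members. *Wnt16* (chr6:22288227-22298522, plus strand), a secreted Wnt ligand, was at 0.714 and 2.25, a ratio of 0.92, and *Itih4* (chr14:30886476-30902353, plus strand), an acute-phase protein of the inter-alpha-trypsin inhibitor family, at 1.25 and 3.17, a ratio of 0.89. In A-highest cells the ratios of these genes were 0.05 and 0.15, and in C-highest cells 0.22 and 0.36. Without the added 1, *Itih4* in *Trf2T188A* was 2.54, 1.24 and 1.74 times its control level in members, A-highest and C-highest cells. Thinned shares of members with a UMI were 24.1% and 50.0% for *Wnt16* and 34.8% and 48.1% for *Itih4*. Among the remaining highest genes were the chemokine *Cxcl1* (0.814 and 1.71), the stress-induced *Nupr1* (11.8 and 18.3), *Hspa1a* (5.99 and 9.28) and *Serf2* (4.07 and 6.43), and *Serf2* had similar ratios of 0.55, 0.43 and 0.53 in members, A-highest and C-highest cells.

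**Figure D5:**
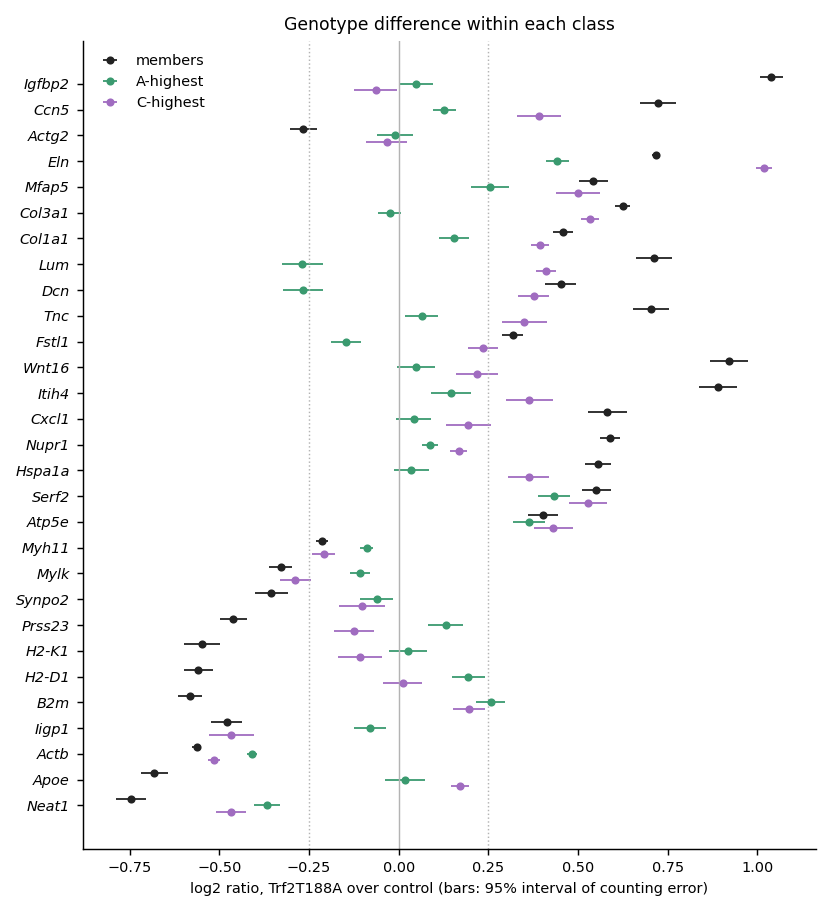
Points give the log2 ratio of *Trf2T188A* over control for 29 genes within members (black), A-highest (green) and C-highest (purple) cells, with 95% intervals of counting error and dotted lines at the fold of 0.25 in size. *Igfbp2*, *Wnt16* and *Itih4* have ratios of 0.89 to 1.04 in members and at most 0.36 elsewhere, and *Lum*, *Dcn* and *B2m* lie on opposite sides of 0 in members and A-highest cells. *Igfbp2*, *Ccn5* and *Actg2* are genes of score B, so their ratios are partly set by the rule.

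Genes lower in *Trf2T188A* members included the nuclear long non-coding RNA *Neat1* (6.64 and 3.55, ratio -0.75), *Apoe* (8.25 and 4.77, ratio -0.68), and cytoplasmic actin *Actb* (93.6 and 63.0, ratio -0.56). *Neat1* and *Actb* were lower in the other classes as well, with ratios of -0.37 and -0.41 in A-highest and -0.47 and -0.52 in C-highest cells, whereas *Apoe* had 0.02 and 0.17 there. *B2m*, the light chain of MHC class I, was at 11.3 and 7.25, *H2-D1* at 6.08 and 3.81 and *H2-K1* at 3.20 and 1.87. In a list of MHC class I genes drawn up after these values were seen, 3 of 9 were lower and none higher in members, 1 of 8 was higher in A-highest cells, and 0 of 9 were past the fold in C-highest cells. *H2-D1* and *H2-K1* belong to a family of near-identical genes, so their separate values are uncertain. Of 7 interferon-stimulated genes *Iigp1* (0.558 and 0.117) and *Gbp2* (0.389 and 0.0917) were lower. Without the added 1, *Iigp1* in *Trf2T188A* was 0.21, 0.76 and 0.33 times its control level in members, A-highest and C-highest cells. For *Gbp2* these values were 0.24, 0.73 and 0.42, so neither difference was confined to members. Past the fold downwards were *Isg15* and *Iigp1* of 8 such genes in C-highest cells, and none of 6 in A-highest cells. *Prss23*, *Mtus2* and *Tppp3* completed the 10 lowest, with ratios from -0.44 to -0.50.

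Contractile genes differed little between the genotypes. Of 24 tested genes *Synpo2* (4.18 and 3.05, ratio -0.36) and *Mylk*, the myosin light chain kinase (10.6 and 8.26, ratio -0.33), were lower and none was higher, with a median of -0.03. *Myh11* had a ratio of -0.21, *Cnn1* 0.09, *Acta2* 0.17 and *Tagln* 0.05, none past the fold. Of 22 TGF-beta genes the pseudoreceptor *Bambi* was higher (0.38) and *Id1* lower (-0.41), and *Tgfb2* had 0.14. *Ccn1* and *Fstl1* of 16 YAP and TEAD genes and *Hes1* of 8 Notch genes were higher, with ratios from 0.26 to 0.34. Among 13 proteases and inhibitors *Ctsl*, *Timp1* and *Mmp2* were higher, and *Prss23* and *Serpine2* lower. In C-highest cells *Mylk* and *Id1* were likewise past the fold downwards and *Ccn1* and *Mmp2* upwards. *Synpo2*, *Bambi*, *Fstl1*, *Hes1*, *Ctsl*, *Timp1*, *Prss23* and *Serpine2* were not past it there. In A-highest cells none of these genes was past the fold.

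The genes that the study used for fibromyocytes and de-differentiation are markers that it also applied to these samples. Of the 9 tested between genotypes in members, 5 were past the fold upwards and none downwards: *Eln*, *Lum*, *Col3a1*, *Col1a1* and *Dcn*. *Lum* was at 0.929 in control and 2.16 in *Trf2T188A* members, and *Dcn* at 0.135 and 0.552, levels that in both libraries were below those of C-highest cells. In C-highest cells 6 of 10 of these genes were higher and none lower, with a median of 0.37, and in A-highest cells 1 of 8 was higher and 2 lower. *Tnfrsf11b*, *Mgp*, *Sfrp4* and *Fmod* had ratios of -0.00, 0.04, 0.17 and 0.03. The added 1 hid a difference in *Sfrp4*, whose means were 0.189 in control and 0.342 in *Trf2T188A* members. On the rate scale used for *Cdkn2a* it was at 19.9 (exact Poisson interval 17.5 to 22.4) and 36.3 (33.5 to 39.3). Without the added 1, *Sfrp4* in *Trf2T188A* was 1.81, 0.730 and 1.73 times its control level in members, A-highest and C-highest cells. The rate intervals of *Fmod* in members overlapped. Of 10 senescence genes only *Cxcl1* was past the fold, *Cdkn2b* was at 0.384 and 0.537 and *Cdkn1a* at 2.11 and 2.03. Without the added 1, *Cdkn2b* in *Trf2T188A* was 1.40, 0.857 and 1.17 times its control level in members, A-highest and C-highest cells. For *Cdkn2a* these values were 1.27, 0.778 and 1.38, with only 9 and 14 UMIs in A-highest cells. Its rate intervals in members, 18.5 to 23.4 and 24.7 to 29.7, did not overlap. Its thinned shares, 7.66% (6.26 to 9.27%) and 8.85% (7.36 to 10.5%), had overlapping intervals.

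Some lists differed between the genotypes in every class. Of 14 nuclear respiratory chain genes 6 were higher in *Trf2T188A* members, 10 in A-highest and 7 in C-highest cells, and none was lower, with *Atp5e* at 3.89 and 5.46 in members. Of 81 cytosolic ribosomal protein genes, a list added after these data were seen, 15 were higher in members, 12 in A-highest and 14 of 80 in C-highest cells. Of 13 mitochondrially encoded genes, a list also added after these data were seen, 3 were higher in members, 5 in A-highest and 4 of 12 in C-highest cells. Of 9 heat-shock genes 5 were higher in members with a median of 0.30, 0 in A-highest and 1 in C-highest cells, and the difference between the classes was not tested. Immediate early genes were lower in 3 of 12 cases, *Atf3*, *Fosb* and *Jund*, with a median of -0.16. Both lists respond to tissue digestion, and their part in the other differences between the libraries was not tested.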

How the data were processed

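Chromium 10x reads of the 2 ligation libraries had been aligned to GRCm38 by the authors with Cell Ranger 6.1.2, and those of the 2 plaque libraries with a later release. The labels of the ligation libraries name R 3.6.2 and Seurat 3.2.1, whereas the methods of the study name later versions of both. Ligation cells under 1200 genes, above 6% mitochondrial reads, or with over 40% of their reads in the top expressed genes had been removed by the authors. The deposited signal was the UMIs of a gene per 10000 UMIs of its cell, linear, and 100% of values were within 0.01 of whole multiples of 1 UMI, so UMI counts were recovered. A count model across samples was not possible with 1 library per genotype, and no p-value was computed. Genes were joined over 29459 names, and a gene not listed for a library was taken as 0 there.

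The members and the gene lists were chosen with earlier results of these data known. Scores, classes and ratios are as given with the results, cells are not replicates, and doublets were not called. Intervals of ratios used the delta method on UMI counts. Thinning drew 5000 UMIs per cell, leaving out cells with fewer. Named genes were those of score B, genes the study names, the 2 highest and 2 lowest of each list against A-highest cells and between genotypes, and the 10 highest and 10 lowest of each comparison outside the scores. A gene that this rule picked is not reported here. Other genes were named because their list counts turn on them, after their values had been seen. The analysis was written in Python 3.11.15 with pandas 2.3.3, scipy 1.17.1, matplotlib 3.10.9 and numpy 2.4.6, and the ratios were run on simulated Poisson counts. Those counts share the assumption behind the intervals and lack the spread between cells seen in the members. They cannot show how well the intervals hold for genes held unevenly, such as *Igfbp2*.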

Additional observations from a re-analysis of the deposited data

Results flagged for a closer look

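For 3 genes the genotypes differed past the fold of 0.25 in opposite directions in members and in A-highest cells, and this difference between classes was not tested. *Lum* had a log2 ratio of *Trf2T188A* over control of 0.71 in members and -0.27 in A-highest cells. *Dcn*, the related proteoglycan, had 0.45 in members and -0.27 in A-highest cells, and its value in members was 0.21, under the fold, as a difference of mean log2 values and 1.47 with a pseudocount of 0.1. *B2m* had -0.58 in members and 0.26 in A-highest cells. In C-highest cells the ratios were 0.41, 0.38 and 0.20, so that *Lum* and *Dcn* followed the members there and *B2m* the A-highest cells. *Lum* was detected after thinning in 11.8% of control and 26.2% of *Trf2T188A* members, and in 15.0% and 11.1% of A-highest cells.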

How the results depend on the processing

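No paired analysis was possible because there was 1 library per genotype. With the floor at a B z-score of 0, members made up 34.9% of control and 29.9% of *Trf2T188A* cells, and at 1 they made up 15.6% and 16.5%. A pseudocount of 0.1 in place of 1 took the genes past the fold to 460 against A-highest cells, 900 against C-highest cells and 1096 between the genotypes. Thinning before scoring, z-scores within each library, leaving out endothelial-marked and immune-marked cells and, added after the data had been seen, leaving out barcodes present in both libraries kept both shares within their intervals. Under these and under ratios of summed UMIs, differences of mean log2 values and no filter on low values, the counts of genes past the fold stayed within 1.5 times those reported. The number of genes tested did not stay the same: between the genotypes thinning took it from 8100 to 5531. No named gene past the fold turned its direction under any of these settings. Thinned scoring found 87.7% of the members again. Between the genotypes, *Eln* ranged from 0.51 to 1.28, *Lum* from 0.42 to 1.13, *Dcn* from 0.21 to 1.47 and *Actg2* from -0.43 to -0.12, the cause of which was not tested. Variation between animals cannot be judged from these libraries, and genes with few UMIs per cell, such as *Cdkn2a*, are limited by depth.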

Other observations

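The plaque libraries of the series were not used for the comparisons and give the background level of the genes in diseased arteries, at a different depth and after a different selection of cells. Both came from aorta and carotid plaques of tamoxifen-treated mice on a high fat diet that carried Myh11-CreERt2, Confetti and ApoE-/-, with Sm22a-Trf2T188A in addition in 1 of them, and the study kept the lineage-labelled cells. Over 1502 *ApoE-/-* and 929 *Trf2T188A/ApoE-/-* plaque cells, *Igfbp2* had means of 0.352 and 0.303 UMIs per 10000, against 2.15 and 3.84 over all control and *Trf2T188A* ligation cells. *Ankrd1* was at 0.277 and 0.284 against 1.18 and 1.26. *Postn* was at 7.85 and 8.80 against 7.71 and 8.64, and *Ccn5* at 1.27 and 1.71 against 0.559 and 1.08. *Eln* was at 14.1 and 20.5 against 31.2 and 48.6.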
